A study of Mus musculus with 14 samples.

Results

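Developmental transcription factors outside the Hox clusters were examined in the methylation levels that reduced representation bisulfite sequencing (RRBS) gave for mouse mammary adipose tissue. Members were all sites whose nearest gene carries a symbol of the Sox, Pax, Lhx, Dlx, Gata, Meis, Fox, Pou, Nkx or Six2 families, found by matching the symbol alone. The rule gave 1207 of 75761 sites (1.59%) and 111 of 12627 gene symbols, among them Nkx2-2os, a transcript antisense to Nkx2-2. A gene had 1 to 86 sites with a median of 7, compared with a median of 3 for the other genes. Of the member sites, 363 lay in introns, 266 in coding exons, 165 in UTRs, 253 upstream and 136 downstream of their gene. Another 24 lay in noncoding exons, and 127 of all members (10.5%) lay inside another protein-coding gene.

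The tissue was the mammary fat pad on the side opposite the tumor of 14 female C57BL/6NCrl mice (C57BL/6N in the labels), which had arrived at 8 weeks of age. CON-LFD mice (n = 3) ate a low-fat diet (10% of kcal as fat) throughout, and the mice of the other groups were made obese on a high-fat diet (60%) over 15 weeks. DIO-HFD mice (n = 4) then stayed on the high-fat diet, DIO-LFD mice (n = 3) changed to the low-fat diet, and DIO-VSG mice (n = 4) had vertical sleeve gastrectomy (VSG, removal of most of the stomach) and the low-fat diet. All mice without VSG had sham surgery, and all 14 mice were injected with E0771 mammary cancer cells 7 weeks after surgery, 4 weeks before the tissue was taken. The sample labels also name E0771 as a cell line, whereas they give the tissue as normal. RRBS reads the DNA of all cells of the pad, so a different mix of cell types and a different level within a cell type cannot be told apart. Expression was not analysed here, so the tissue could not be checked by its markers. Of the marker genes listed for adipocytes, mammary epithelium, lymphocytes, macrophages and endothelium, 3 of 8, 7 of 8, 4 of 8, 1 of 6 and 2 of 4 had a site.

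These families bind DNA through homeodomains, HMG boxes, forkhead domains or zinc fingers and set cell identity in the embryo and in adult stem cells. Most are silent in most adult cells, where Polycomb proteins rather than DNA methylation keep many of their CpG-rich genes off, so their CpG islands are known as stretches of low methylation. Some members also act in the mammary fat pad, such as Foxa1, Gata3 and Sox9 in the epithelium, Gata2 and Foxc2 in fat cells and their precursors, and Foxp3 in regulatory T cells.

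RRBS starts from fragments that MspI cuts at CCGG (the same letters on both strands), here fragments of 40 to 170 bp, and the level of a site is the methylated share of its reads. The windows printed here show how measured sites fall in such fragments. The first holds the 2 Meis2 sites with the smallest p for DIO-VSG against DIO-HFD mice, the second holds sites within and outside CCGG next to each other in Sox2, and the last starts the run with the most sites in Gata2, the gene with the most sites. Each is the plus strand of mm10 from the RefSeq copy of that build, with the CCGG or CG of each measured site in capitals.
Meis2, chr2:116062287-116062413: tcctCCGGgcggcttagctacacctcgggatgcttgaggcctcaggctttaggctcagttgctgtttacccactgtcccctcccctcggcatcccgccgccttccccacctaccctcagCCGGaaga
Sox2, chr3:34650573-34650872: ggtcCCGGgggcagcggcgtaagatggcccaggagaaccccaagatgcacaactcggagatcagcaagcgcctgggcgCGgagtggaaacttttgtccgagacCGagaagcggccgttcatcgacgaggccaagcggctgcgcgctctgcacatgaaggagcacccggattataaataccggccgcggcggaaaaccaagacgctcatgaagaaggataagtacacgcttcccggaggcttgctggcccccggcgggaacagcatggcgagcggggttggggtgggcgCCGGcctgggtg
Gata2, chr6:88196367-88196666: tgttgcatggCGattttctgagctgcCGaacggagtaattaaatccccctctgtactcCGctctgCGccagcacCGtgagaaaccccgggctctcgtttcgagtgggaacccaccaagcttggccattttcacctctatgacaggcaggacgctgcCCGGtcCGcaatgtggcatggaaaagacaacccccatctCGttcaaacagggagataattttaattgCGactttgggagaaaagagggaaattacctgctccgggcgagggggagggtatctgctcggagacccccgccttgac
The Meis2 window lies in a noncoding exon of the gene, the Sox2 window in a coding exon and the Gata2 window in an intron.

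The member genes were less methylated than the rest of the table, and the gap was widest at sites outside CCGG. At these sites the mean level over the 14 mice was 36.7% at 656 member sites and 61.0% at 50349 other sites. Within CCGG it was 54.4% at 551 member sites and 64.0% at 24205 other sites. Of the members 41.1% lay in CpG islands and 45.7% within CCGG, compared with 23.5% and 32.5% of the other sites. The difference was also present within islands, where member sites outside CCGG had a mean level of 24.6% and other sites 36.3%. Outside islands the corresponding values were 43.8% and 66.5%. In promoter islands (sites flagged as promoter, up to 1001 bp from a start) 38.6% of the member sites outside CCGG had a level under 10%, compared with 20.2% of the other sites. These are descriptions over sites that share mice, genes and fragments, with no test.

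Member sites within CCGG gathered around the middle of the scale, where few other member sites lay. Of the member sites within CCGG, 56.3% had a mean level from 40% to 60%, and in islands 70.2% did. Outside CCGG the shares were 16.3% and 14.5%. In Sox2, which keeps stem cells and neural progenitors undifferentiated, the 5 sites outside CCGG lay between 3.93% and 9.60%, whereas the 4 sites within CCGG lay between 28.1% and 54.6%. In the Sox2 window the level went from 38.4% at the first CCGG site to 4.40% and 4.54% at both CG sites after it and to 44.5% at the last CCGG site. Nkx2-4 had 21 sites between 3.66% and 18.1% outside CCGG and 5 sites between 50.2% and 59.0% within it. Pou4f2, a factor of sensory neurons, had medians of 6.51% outside and 67.5% within CCGG. Pax6, which directs eye and forebrain development, had medians of 13.5% and 54.7%. Among 120 pairs of a site within and a site outside CCGG in member genes, at most 50 bp apart, the site within CCGG was higher in 113, with medians of 58.9% and 19.2%. In islands it was higher in 41 of 42 pairs, with medians of 54.1% and 9.80%. The same peak stood in the other sites of the table, where 60.5% of island sites within CCGG lay from 40% to 60%. The ends of MspI fragments are filled in with new bases when a library is made, and whether those bases were trimmed from the reads is not given in the sources used here. Levels within CCGG may therefore not be methylation of the tissue's DNA alone, which was not tested. This bears on the Meis2, Sox17 and Pou2f3 sites and on Gata3 and Sox9 below. The means of genes in the comparisons cover all tested sites, within and outside CCGG, unless stated.

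**Figure D1:**
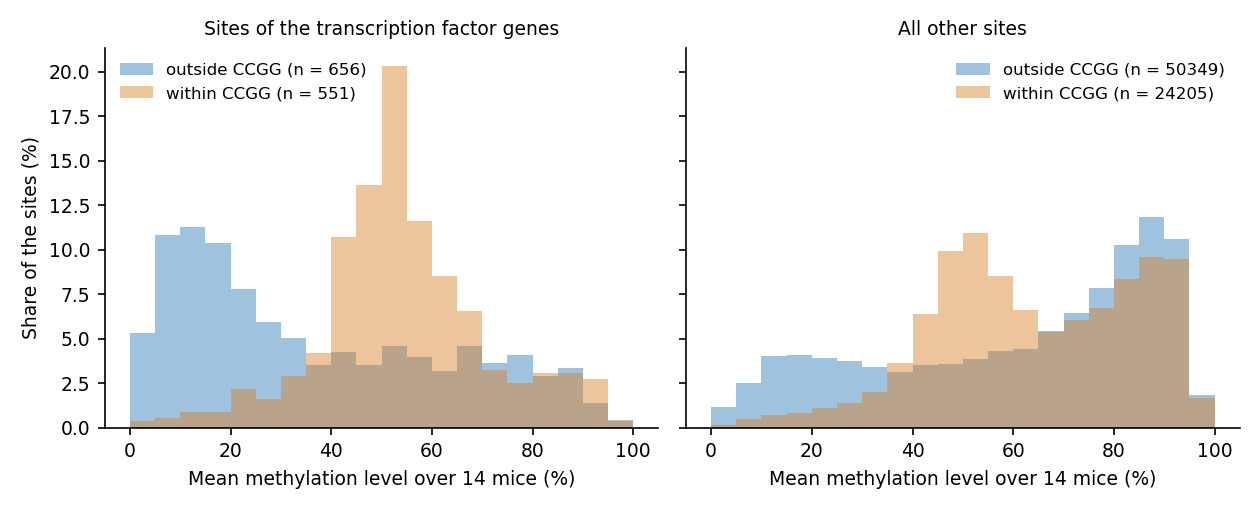
Share of sites (vertical axis, %) by mean methylation level over 14 mice (horizontal axis, %, in bins of 5 percentage points) for sites of the transcription factor genes and all other sites, outside (blue) and within CCGG (orange). Member sites outside CCGG pile up at low levels (16.2% of them under 10%) and those within CCGG around the middle (56.3% from 40% to 60%), whereas other sites outside CCGG are mostly high.

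Low levels in member genes reached well beyond the transcript start. From 500 to 2000 bp downstream of the start, 143 member sites outside CCGG had a mean of 22.5%, and the other sites 45.0%. Between 2000 and 10000 bp downstream the means were 42.7% and 58.9%, and beyond 10000 bp downstream they were 62.0% and 72.5%. Upstream the gap stayed wide, with 32.5% at member sites from 10000 to 2000 bp upstream and 61.6% at the others. Farther upstream the means were 35.4% and 73.5%. This reach was not particular to the members. From 500 to 2000 bp downstream Hox genes averaged 26.0% outside CCGG, and a list of further developmental regulators described below 23.9%. Between 2000 and 10000 bp downstream they averaged 38.6% and 30.5%. By place, member sites outside CCGG were lowest in introns (31.0%), upstream of the gene (31.4%) and in coding exons (34.0%), and highest downstream of the gene (54.9%).

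**Figure D2:**
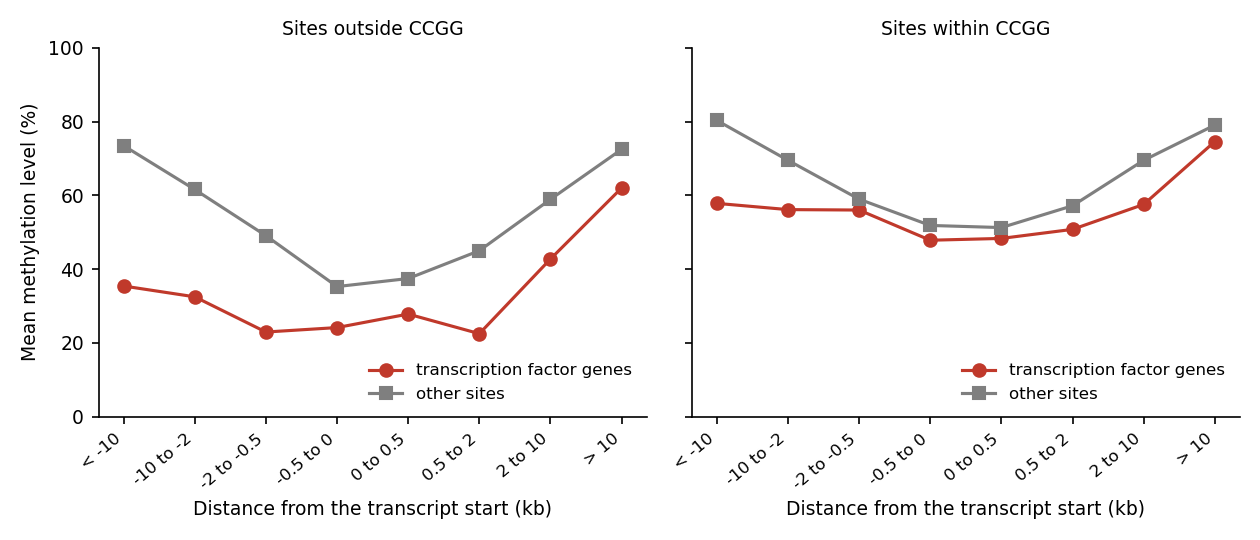
Mean methylation level (%) by distance from the transcript start (kb, negative upstream) at sites outside and within CCGG, for the transcription factor genes (red circles) and other sites (gray squares). Outside CCGG the member genes lie below the other sites in every bin, at 22.5% against 45.0% from 0.5 to 2 kb downstream.

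The families differed in level. Over all sites the Pax family, which patterns the neural tube, muscle and kidney, was lowest at 37.7% (7 genes, 121 sites), and the Meis family, partners of Hox proteins, highest at 49.9% (3 genes, 12 sites). Of the Meis sites 83.3% lay within CCGG. Outside CCGG Six2 and its relatives were lowest at 16.3% over 11 sites, and the Fox family was highest at 44.7% over 272 sites. Between them lay Lhx at 24.3%, Pax at 24.8%, Nkx at 25.1%, Gata at 34.0%, Sox at 36.7%, Dlx at 39.8% and Pou at 40.6%, with the pair of Meis sites at 44.6%. By role, genes of neural development averaged 29.2% outside CCGG (37 genes with a site), those of heart, muscle and vessel 28.1% (15 genes) and those of endoderm 30.5% (10 genes). Fox and Pou genes that most tissues express averaged 42.0% (12 genes), mammary epithelial factors 43.5% (4 genes), adipose factors 34.8% (9 genes) and blood and immune factors 35.7% (7 genes). Hox genes averaged 27.7% over 184 sites outside CCGG, and 82 further developmental regulators, chosen as a list of genes such as Otx2 and Twist1 of which 70 had a site, averaged 32.2% over 417 sites.

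Genes with the same role could differ widely. Gata2, needed for blood stem cells and for keeping fat precursors undifferentiated (chr6:88193891-88207032), had the most sites (86), of which 80 lay in the gene, with a mean of 35.2% outside CCGG and single sites from 6.08% to 78.9%. Pax7, the marker of muscle stem cells (chr4:139737062-139833528), had 55 sites with a mean of 35.1% outside CCGG. Foxc2, a factor of fat and lymphatic vessels (chr8:121116171-121118895), had 40 sites and stood lower, at 18.0%. Foxa1, a pioneer factor of mammary luminal cells (chr12:57540628-57546916), averaged 13.3% outside and 50.3% within CCGG, over 14 sites in all. Sox10, a factor of neural crest and of mammary stem and basal cells (chr15:79154908-79165240), averaged 50.5% outside CCGG, over 15 sites. Gata3, the luminal regulator, and Sox9, a progenitor factor, had only sites within CCGG, 4 and 6 of them, with means of 45.4% and 49.0%. Gata4, a factor of heart and gut, averaged 13.1% outside and 64.3% within CCGG, and the heart factor Nkx2-5 averaged 45.4% and 52.5%. Foxp3, which defines regulatory T cells, had a single site outside its gene at 82.0%. Foxp1, Pou2af1 and Gata1 had no site.

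One mouse stood apart before any comparison. Over member sites outside CCGG, DIO-HFD replicate 1 had a mean of 39.9%, whereas DIO-HFD replicates 2, 3 and 4 had 31.5%, 34.3% and 31.9%. CON-LFD mice had 38.4%, 37.6% and 34.7%, DIO-LFD mice 39.8%, 35.4% and 36.8%, and DIO-VSG mice 38.5%, 38.3%, 38.4% and 38.4%. DIO-HFD replicate 1 therefore lay with the highest mice of the other groups, and the other 3 DIO-HFD mice lay below every mouse of those groups. The group means were 36.9% ± 1.94 (SD, n = 3) for CON-LFD, 34.4% ± 3.87 (SD, n = 4) for DIO-HFD, 37.4% ± 2.25 (SD, n = 3) for DIO-LFD and 38.4% ± 0.0799 (SD, n = 4) for DIO-VSG. Without replicate 1 the DIO-HFD mean was 32.6% ± 1.51 (SD, n = 3). Within CCGG the member means of the 4 groups were 54.1%, 54.4%, 54.6% and 54.4%, and replicate 1 lay only 0.875 percentage points above the other DIO-HFD mice, compared with 7.34 outside CCGG. Other sites outside CCGG showed the same order of mice, with 65.1% in DIO-HFD replicate 1 and 54.9% to 55.5% in the other DIO-HFD mice. The labels give no reason for this, and its cause was not tested. The counts and the leading sites and genes of the comparisons with DIO-HFD are therefore also given without that mouse. It was chosen by its levels in these same data, and its mean outside CCGG lay with the other groups. Leaving it out thus widens the difference of the DIO-HFD mean and narrows its spread. Adjusted p without it are likely too small, and they show only how the calls depend on that mouse.

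**Figure D3:**
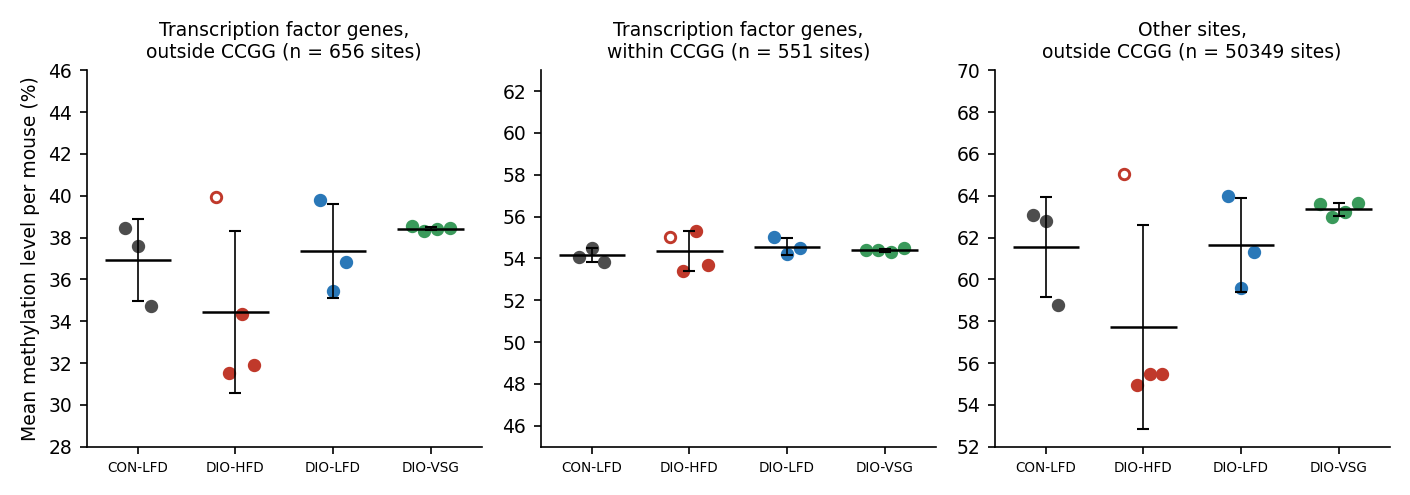
Mean methylation level per mouse (%) over member sites outside CCGG, member sites within CCGG and other sites outside CCGG, by group. Points are mice (the open circle is DIO-HFD replicate 1), lines are group means and bars are SDs; each panel spans 18 percentage points on an axis that does not start at 0. The 3 filled DIO-HFD points lie at 31.5% to 34.3% at member sites outside CCGG, below all other mice.

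The groups were compared site by site with limma on M, the log2 ratio of the methylated to the unmethylated share, over all sites with a standard deviation (SD) of at least 0.05 across the mice. This left 920 of the 1207 member sites and 105 of the 111 genes. The 9 Pax6 sites and the single site of Pax5, a factor of B cells, varied less than this and were not tested. The comparisons of CON-LFD, DIO-LFD and DIO-VSG with DIO-HFD ask how methylation differs with obesity and after weight loss, and they share the DIO-HFD mice. Only DIO-HFD mice still ate the high-fat diet when the tissue was taken, so body weight and current diet cannot be told apart in them. DIO-VSG and DIO-LFD mice both changed to the low-fat diet. Their comparison asks how VSG with that diet differs from sham surgery with it.

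No member site and no member gene passed an adjusted p of 0.05 (limma, Benjamini-Hochberg adjustment over all features tested) in any comparison with all mice and all groups in the fit. With only the groups compared in the fit, 1 member site passed for DIO-VSG against DIO-HFD, the Meis2 site described next. In that fit it was 0.109% of the members tested, beside 0.0716% of all sites. With all groups in the fit, the share of all sites that passed was 0.0% for CON-LFD and 0.00305% for each of the other comparisons. Over all genes it was 0.0% in each. At an unadjusted p under 0.05, CON-LFD against DIO-HFD had 54 member sites of 920, 40 higher and 14 lower, beside 7.76% of all sites (6.0% higher and 1.76% lower). DIO-LFD against DIO-HFD had 97, 65 higher and 32 lower, beside 10.1% of all sites (7.92% higher and 2.16% lower). DIO-VSG against DIO-HFD had 193, 140 higher and 53 lower, beside 25.0% of all sites (20.2% and 4.85%). DIO-VSG against DIO-LFD had 29, 14 higher and 15 lower, beside 3.98% (2.42% and 1.55%). As shares of the tested member sites these were 5.87%, 10.5%, 21.0% and 3.15%, near or under the share of all sites in each comparison. Sites whose groups did not overlap numbered 54, 44, 56 and 59 among the members, or 5.87%, 4.78%, 6.09% and 6.41%, beside 4.68%, 4.80%, 7.58% and 7.74% of all sites.

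The median difference of the member sites was smaller than that of all sites. In percentage points over DIO-HFD it was 1.92 in CON-LFD, 2.35 in DIO-LFD and 3.01 in DIO-VSG mice, and over all tested sites it was 3.721, 3.814 and 5.40. For DIO-VSG over DIO-LFD it was 0.990 and 1.71. On the M scale all tested sites shifted by a median of 0.29, 0.30, 0.48 and 0.16 in the 4 comparisons. Once M was centred on each mouse's median, the member sites with an unadjusted p under 0.05 split the other way. CON-LFD then had 29 higher and 51 lower than DIO-HFD, beside 4.15% and 3.4% of all sites. DIO-LFD had 48 and 57, beside 5.53% and 4.43%, and DIO-VSG 58 and 155, beside 8.64% and 11.4%. DIO-VSG against DIO-LFD had 10 and 28, beside 1.75% and 2.9%, so that all sites also split toward lower in both comparisons of DIO-VSG.

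Without DIO-HFD replicate 1 many member sites and genes passed the adjusted threshold, again in shares near or under those of the whole table. Against DIO-HFD 106 of the 920 member sites passed in CON-LFD, 122 in DIO-LFD and 280 in DIO-VSG mice. The shares over all sites were 12.0%, 14.6% and 34.4%. Of the 105 genes 10, 11 and 29 passed, beside 14.8%, 14.7% and 34.0% of all genes. With all mice, 4, 6 and 18 genes had an unadjusted p under 0.05, beside 8.13% (7.26% higher and 0.863% lower), 9.19% (7.82% and 1.37%) and 27.0% (23.6% and 3.37%) of all genes. Of these 4, 4 and 12 were higher. DIO-VSG against DIO-LFD had 2 genes higher and 2 lower, beside 4.83% (3.21% and 1.62%).

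Meis2, a homeobox gene of limb, heart and brain development on the minus strand of chromosome 2 (chr2:115863064-116065839), held the member site with the smallest p in each comparison with DIO-HFD. At position 116062407, the last CCGG of the Meis2 window, the level was 14.4%, 12.4%, 15% and 11.3% in DIO-HFD mice. It was 0%, 0% and 2.22% in CON-LFD mice, 0%, 3.77% and 0% in DIO-LFD mice and 0% in all 4 DIO-VSG mice. All 4 DIO-HFD mice, replicate 1 included, lay above all 10 other mice. The difference in M from DIO-HFD was -3.46 ± 0.55 (SE) for CON-LFD (limma, adjusted p = 0.371), -3.26 ± 0.55 for DIO-LFD (adjusted p = 0.382) and -4.03 ± 0.51 for DIO-VSG (adjusted p = 0.0548). Leaving out 1 mouse at a time moved the adjusted p for DIO-VSG between 0.00126 and 0.23. With replicate 1 of DIO-HFD left out, the adjusted p was 0.00126 for DIO-VSG, 0.0111 for DIO-LFD and 0.0133 for CON-LFD. The Meis2 site at 116062292, 115 bp away at the other CCGG of the same fragment, had the opposite order. It was 81.5%, 79.8%, 84.8% and 85.0% in DIO-HFD mice, 95.2%, 94.7% and 93.3% in CON-LFD mice, 96.2%, 90.6% and 84.6% in DIO-LFD mice and 100%, 100%, 97.4% and 95.1% in DIO-VSG mice. DIO-VSG mice lay above DIO-HFD mice by 15.3 percentage points (M 3.31 ± 0.58, adjusted p = 0.15, and 0.00403 without DIO-HFD replicate 1). The same site was among the 4 with the smallest p for DIO-VSG against DIO-LFD, where the groups were 7.67 percentage points apart with an overlap (adjusted p = 0.945). Averaged over its 4 tested sites, Meis2 lay between 37.2% and 42.9% in the 14 mice.

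**Figure D4:**
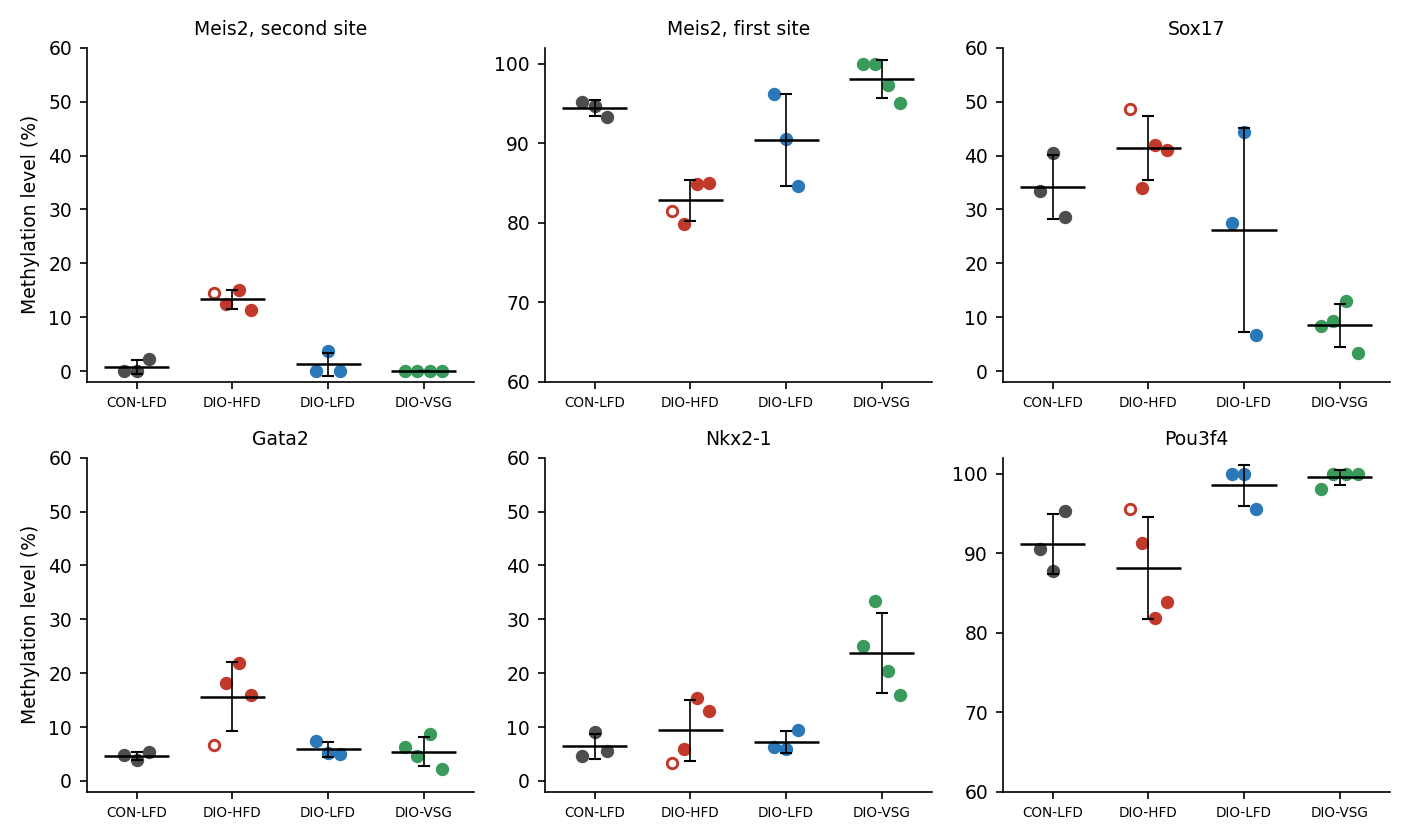
Methylation level (%) of single sites by mouse and group, for both Meis2 sites (the first at 116062292, the second at 116062407) and for Sox17, Gata2, Nkx2-1 and Pou3f4. Points are mice (open circle, DIO-HFD replicate 1), lines means and bars SDs; the axes differ between low and high sites. At the second Meis2 site all 4 DIO-HFD mice lie at 11.3% or more and all others at 3.77% or less.

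Sox17, a factor of endoderm and endothelium, had a site in its coding exon (within CCGG) that was low in DIO-VSG mice. Their levels were 8.33%, 9.38%, 13.0% and 3.33%, compared with 48.7%, 34.0%, 42.0% and 41.0% in DIO-HFD mice. CON-LFD mice had 33.3%, 40.5% and 28.6%, and DIO-LFD mice were spread from 6.67% to 44.4%. DIO-VSG mice lay below all DIO-HFD and all CON-LFD mice, by 32.9 percentage points from DIO-HFD (M -2.90 ± 0.60, limma adjusted p = 0.15, and 0.00906 without DIO-HFD replicate 1).

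A Gata2 site 480 bp into the gene (88194369 on chromosome 6, in an intron within a promoter island, outside CCGG) had levels of 6.67%, 18.2%, 21.8% and 15.9% in DIO-HFD mice. The other 10 mice lay between 2.25% and 8.70%. Replicates 2, 3 and 4 of DIO-HFD were thus higher than all other mice, and replicate 1 was among them. The difference from DIO-HFD was -11.0 percentage points for CON-LFD (M -1.63 ± 0.47, limma adjusted p = 0.611, and 0.0152 without replicate 1). For DIO-VSG it was -10.2 percentage points (adjusted p = 0.15, and 0.0033 without replicate 1).

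Pou3f4, a neural and inner ear factor on chromosome X, had a site 59882 bp downstream of its start (110874160). DIO-VSG mice had 98.1%, 100%, 100% and 100% there and DIO-LFD mice 100%, 100% and 95.6%. DIO-HFD mice had 95.6%, 91.3%, 81.8% and 83.9% and CON-LFD mice 90.5%, 87.8% and 95.2%. DIO-VSG mice lay above all DIO-HFD mice (M 3.31 ± 0.64, limma adjusted p = 0.15), whereas DIO-LFD mice and DIO-HFD replicate 1 met at 95.6% (adjusted p = 0.494). Without replicate 1 neither group overlapped with DIO-HFD (adjusted p = 0.00251 and 0.0158).

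The other sites chosen by their p in a comparison with DIO-HFD followed no common direction. Foxo6, a FoxO factor of brain, had an intron site (120279330 on chromosome 4) at 80.8% to 84.9% in DIO-HFD mice and at 87.5% or more in all 10 others, with a difference of 11.0 percentage points for CON-LFD (adjusted p = 0.611, and 0.0344 without replicate 1). Pou2f3, the factor of tuft cells, was assigned a site within CCGG at -14512 bp from its start that lies in Oaf (43224880 on chromosome 9). There CON-LFD mice averaged 88.6% ± 7.76 (SD, n = 3) and DIO-HFD mice 71.1% ± 8.86 (SD, n = 4). Pax1, a factor of the spine and thymus, had an intron site (147367592 on chromosome 2) that was lower in DIO-LFD (11.1% ± 4.36, SD, n = 3) than in DIO-HFD mice (29.1% ± 8.96, SD, n = 4). Gata4 had an intron site at -1347 bp from the start of the transcript it was assigned to (63246617 on chromosome 14), with 6.28% ± 2.77 (SD, n = 3) in DIO-LFD and 16.0% ± 2.20 (SD, n = 4) in DIO-HFD mice. Without DIO-HFD replicate 1 the Pou2f3 site (adjusted p = 0.0231) and the Pax1 site (adjusted p = 0.014) passed, and the Gata4 site did not (adjusted p = 0.0519).

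Between DIO-VSG and DIO-LFD mice the site with the smallest p was in Nkx2-1, the factor of thyroid and lung (56536061 on chromosome 12, in a promoter island). It stood at 25.0%, 33.3%, 20.5% and 16.0% in DIO-VSG mice and at 6.25%, 5.88% and 9.52% in DIO-LFD mice. CON-LFD mice had 4.55%, 9.09% and 5.56%, and DIO-HFD mice 3.33% to 15.4%, so each DIO-VSG mouse lay above each mouse of the other groups. The difference from DIO-LFD was 16.5 percentage points (M 1.85 ± 0.51, limma adjusted p = 0.945), and from DIO-HFD 14.3 (adjusted p = 0.15, and 0.0375 without DIO-HFD replicate 1). Foxi3, an ectodermal factor of ear and teeth (70967415 on chromosome 6), had a site with 29.6% ± 5.93 (SD, n = 4) in DIO-VSG and 8.54% ± 11.6 (SD, n = 3) in DIO-LFD mice. Sox14, a factor of interneurons (99875153 on chromosome 9), had one with 16.2% ± 3.04 (SD, n = 4) and 4.75% ± 5.73 (SD, n = 3). In neither did the groups overlap, and the adjusted p was 0.945 for each.

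Averaged over their tested sites, the genes with the smallest p in comparisons with DIO-HFD were Foxk1, Foxp3, Pou2f3, Six2 and Nkx2-9. Foxk1, a factor of autophagy and glycolysis expressed in most tissues (chr5:142401497-142462011), had 3 tested sites, none inside the gene. Its mean was 67.9%, 51.0%, 56.6% and 51.0% in DIO-HFD mice and 62.8% to 73.3% in the other 10. Replicate 1 of DIO-HFD lay among the other groups and its 3 group mates below them. For DIO-VSG the difference was 12.5 percentage points (M 0.75 ± 0.23, limma adjusted p = 0.14, and 0.00352 without replicate 1). The Foxp3 site (gene at chrX:7573644-7595245) had 80.1%, 73.3%, 73.2% and 74.6% in DIO-HFD mice, 89.5%, 82.1% and 77.0% in CON-LFD, 88.4%, 81.6% and 86.5% in DIO-LFD and 83.6%, 88.3%, 85.9% and 83.4% in DIO-VSG mice. Here DIO-HFD replicate 1 also lay under all DIO-LFD and DIO-VSG mice (differences of 10.2 and 10.02 percentage points, adjusted p = 0.534 and 0.14, and 0.0426 and 0.0193 without replicate 1). Six2, which keeps kidney progenitors, had 24.5% to 31.6% in DIO-HFD and 30.7% to 37.7% in DIO-LFD mice over 5 tested sites, with an overlap (adjusted p = 0.534, and 0.0343 without replicate 1). Pou2f3 averaged 78.6% ± 7.73 (SD, n = 4) in DIO-HFD and 88.1% ± 6.16 (SD, n = 3) in CON-LFD mice over 2 tested sites (adjusted p = 0.586, and 0.0312 without replicate 1). Nkx2-9, a factor of the floor plate, had 38.6% to 48.1% in DIO-HFD and 17.9% to 30.3% in DIO-VSG mice over 2 sites, without overlap (M -1.12 ± 0.35, adjusted p = 0.14, and 0.061 without replicate 1). Its level in CON-LFD mice ran from 21.0% to 46.4%. For DIO-VSG against DIO-LFD the leading genes were Pou5f1, the pluripotency factor known as Oct4 (-7.39 percentage points over 2 sites), Dlx5, a factor of bone and forebrain (-9.78 over 4 sites), and Pou3f1, a factor of Schwann cells (7.50 over 5 sites), with adjusted p from 0.945 to 0.948.

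For the factors known from the mammary epithelium, the levels of the list outside CCGG were 40.9% ± 3.05 (SD, n = 3) in CON-LFD, 41.7% ± 6.38 (SD, n = 4) in DIO-HFD, 43.5% ± 4.20 (SD, n = 3) in DIO-LFD and 47.3% ± 0.686 (SD, n = 4) in DIO-VSG mice. Over its 9 tested sites Foxa1 lay between 40.3% and 46.3% in all 14 mice. Its differences from DIO-HFD were 1.28 (CON-LFD), 0.926 (DIO-LFD) and 0.332 percentage points (DIO-VSG). All of them turned negative in M with each mouse centred (-0.21, -0.24 and -0.46). The centring used each mouse's median over sites, and all genes then had medians of -0.06, -0.07 and -0.13. Sox9 lay between 46.7% and 51.9% and Gata3 between 42.3% and 50.5%, both measured only within CCGG. Sox10 was more spread, from 40.6% to 55.9%, with 52.5% to 54.9% in DIO-VSG mice and 40.6% to 55.9% in DIO-HFD mice (M 0.30, and -0.18 with each mouse centred). None of these genes passed with or without DIO-HFD replicate 1. Of the 32 tested sites of this list 2 were higher and 0 lower in DIO-VSG than in DIO-HFD mice by the unadjusted p, and 0 higher and 5 lower with each mouse centred. Over all sites the shares were 20.2% and 4.85%, and 8.64% and 11.4% with each mouse centred. Without DIO-HFD replicate 1 the share of the list was 15.6%, beside 44.9% of all sites.

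Of the 169 tested sites of the adipose factors 43 were higher and 13 lower in DIO-VSG mice (33.1%, beside 25.0% of all sites). With each mouse centred 20 were higher and 32 lower, beside 8.64% and 11.4% of all sites. Of the 169, 84 belong to Gata2, and without DIO-HFD replicate 1 the share was 49.7%, beside 44.9% of all sites. Among the genes, Meis1, a partner of Hox proteins and a brake on fat cell formation, averaged 54.5%, 55.8%, 54.0% and 56.5% in DIO-HFD mice over 3 sites. DIO-VSG mice had 77.9%, 64.9%, 67.8% and 59.1%, all above DIO-HFD mice (12.2 percentage points, limma adjusted p = 0.14, and 0.0544 without replicate 1). Lhx8, a marker of brown fat and of forebrain neurons, had 48.7% to 50.2% in DIO-HFD and 38.7% to 47.3% in DIO-VSG mice (adjusted p = 0.159, and 0.0877 without replicate 1). Foxo1, the insulin-regulated factor, averaged 58.9%, 51.8%, 44.5% and 43.1% in DIO-HFD mice and 67.4%, 60.2% and 56.4% in CON-LFD mice over 2 sites (11.8 percentage points, adjusted p = 0.586, and 0.0826 without replicate 1). Foxc2 lay between 25.2% and 34.8%, and Foxa2, Sox6 and Gata2 as a whole also overlapped between the groups in every comparison with DIO-HFD.

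Foxa3, which takes part in fat cell formation and in liver gene control, was among the genes on which DIO-HFD replicate 1 decided the call. Over 28 tested sites it averaged 57.9%, 38.9%, 41.2% and 38.4% in DIO-HFD mice, 57%, 54.2% and 48.7% in CON-LFD, 55.6%, 47.2% and 54.1% in DIO-LFD and 54.0%, 56.3%, 51.1% and 52.4% in DIO-VSG mice. Replicate 1 was the highest of all 14 mice and its group mates were the lowest. The difference of DIO-VSG from DIO-HFD in M was 0.54 ± 0.24 (limma adjusted p = 0.178) with replicate 1 and 0.80 without it (adjusted p = 0.00388). Foxh1, a partner of Smad proteins in Nodal signalling, had the same order over 35 sites, with 63.8%, 41.2%, 43.3% and 38.2% in DIO-HFD mice and 50.8% to 63.1% in the other groups (adjusted p = 0.144, and 0.00171 without replicate 1). Of the Foxh1 sites, 11 at chr15:76666967-76667078 and 7 at chr15:76667217-76667287 lay downstream of the gene, inside Kifc2. In Foxh1 itself, 15 sites (chr15:76669031-76669402) averaged 67.3%, 39.4%, 44.7% and 37.7% in DIO-HFD mice and 54.3% to 72.0% in the others. Pax7 averaged 50.1%, 36.6%, 37.4% and 36.9% in DIO-HFD mice over 49 sites and 40.8% to 47.2% in the other groups (adjusted p = 0.206, and 0.00461 without replicate 1). The Pax7 difference of DIO-VSG from DIO-HFD in M was 0.36 with all mice and -0.12 with each mouse centred. The centred median over all genes was -0.13. The reverse order was seen in Pou2f2, a factor of B cells, with 33.2%, 54.8%, 50.1% and 46.4% in DIO-HFD mice and 34.6%, 35.0%, 40.6% and 35.0% in DIO-VSG mice (adjusted p = 0.201, and 0.0174 without replicate 1). Foxn3, a cell cycle checkpoint factor, had 17.6%, 45.2%, 42.5% and 35.9% in DIO-HFD and 17.5% to 24.7% in DIO-VSG mice (adjusted p = 0.154, and 0.00226 without replicate 1). Foxh1 and Foxn3 were named after their values were seen.

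Neighbouring sites were also examined as runs. Runs of 4 or more member sites outside CCGG, each at most 100 bp from the next, numbered 43 in 24 genes and held 287 sites. With all mice, DIO-VSG and DIO-HFD mice did not overlap in 2 of the 43, compared with 6.44% of 3151 such runs over all genes. Without DIO-HFD replicate 1, DIO-VSG mice were above DIO-HFD mice in 21 and below them in 8 runs, compared with 54.9% and 11.4% of all runs. Over exons of Gata2 (chr6:88204480-88204646, 8 sites) the mean was 58.0%, 17.4%, 20.2% and 24.8% in DIO-HFD mice and 47.3% to 56.2% in DIO-VSG mice. CON-LFD mice had 52.9%, 48.8% and 34.7% and DIO-LFD mice 59.0%, 35.8% and 43.8%, so that CON-LFD replicate 3 and DIO-LFD replicate 2 lay between the other mice and DIO-HFD replicates 2, 3 and 4. An intron run of Gata2 beside it (chr6:88204768-88204947, 7 sites) repeated this order, with 56.7%, 20.8%, 24.2% and 24.6% in DIO-HFD mice.

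The Gata2 window printed in the opening, nearer the start, went the other way. Its run (chr6:88196377-88196751, 14 sites in an island) averaged 24.3%, 28.1%, 38.2% and 33.1% in DIO-HFD mice and 21.3% to 26.1% in the other 10 mice. In this run DIO-HFD replicates 2, 3 and 4 were thus higher than all other mice, and in the exon run lower than all of them, and the mean over the whole gene, between 33.5% and 44.9%, held both. An intron run nearer still to the start (chr6:88194521-88194654, 6 sites) had the same order as that island run. DIO-HFD mice had 24.1%, 29.6%, 31.4% and 31.9% there and the others 16.9% to 26.8%. The remaining runs of Gata2 did not separate these mice. In a coding exon (chr6:88200286-88200516, 11 sites) DIO-HFD mice had 52.7%, 38.6%, 53.9% and 38.1% and the others 45.0% to 56.7%. Upstream of the gene (chr6:88193524-88193564, 4 sites) they had 19.6%, 24.7%, 39.5% and 22.2% and the others 18.2% to 30.9%. An intron run of Pax7 (chr4:139757030-139757278, 7 sites) averaged 56.7%, 17.7%, 18.6% and 23.7% in DIO-HFD mice and 48.5% to 59.3% in DIO-VSG mice. A second Pax7 run in an island (chr4:139831538-139831608, 4 sites) stayed between 9.37% and 18.3% in 13 of the mice and reached 26.5% in DIO-LFD replicate 2.

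Other runs showed either direction. Foxs1, a factor of pericytes, had 80.2%, 38.2%, 41.0% and 48.1% in DIO-HFD mice downstream of the gene (chr2:152928608-152928880, 6 sites) and 70.2% to 76.6% in DIO-VSG mice. In Foxo3, the FoxO factor of stress and longevity, an intron run (chr10:42274077-42274130, 4 sites) had 4.49%, 26.3%, 36.6% and 24.7% in DIO-HFD mice and 5.10% to 15.4% in all others. In Foxn4, a factor of retina and spinal cord, an intron run (chr5:114269297-114269396, 5 sites) had 10.3%, 38.1%, 33.6% and 30.4%, compared with 8.65% to 23.4%. Other Foxn4 runs lay downstream of the gene, inside Acacb. One of them (chr5:114248408-114248518, 4 sites) went the other way, with 50.8%, 41.2%, 42.3% and 42.3%, compared with 43.9% to 60.1%. The other (chr5:114246815-114246917, 5 sites) had 55.7%, 71.7%, 72.2% and 69.3%, compared with 56.3% to 71.1%. The Foxn3 intron run (chr12:99407002-99407053, 4 sites) had 9.08%, 43.5%, 41.2% and 31.3% in DIO-HFD mice and 8.88% to 15.6% in DIO-VSG mice, while DIO-LFD replicate 3 reached 32.3%. In the Foxs1 run and the intron runs of Foxo3, Foxn4 and Foxn3, DIO-HFD replicate 1 lay beyond or among the DIO-VSG mice and away from its own group. In the low island run of Nkx2-4 (chr2:147084746-147084925, 14 sites) DIO-HFD mice had 10.5%, 3.87%, 6.37% and 4.93% and DIO-VSG mice 7.04% to 17.7%, so that replicates 2, 3 and 4 lay below all DIO-VSG mice and replicate 1 among them. The runs of Foxs1, Foxo3, Foxn4, Foxn3 and Nkx2-4 were named after their values were seen.

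**Figure D5:**
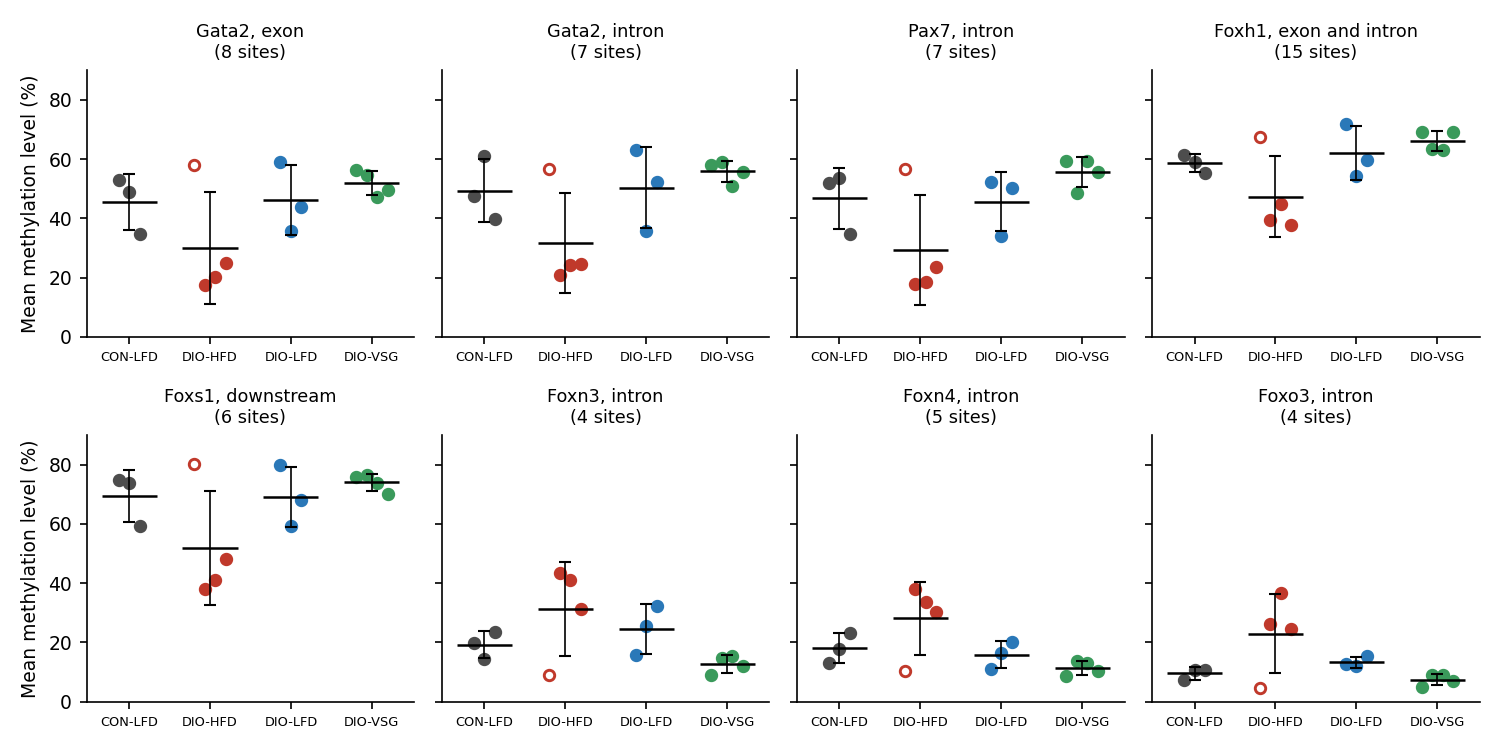
Mean methylation level (%) of runs of neighbouring sites outside CCGG by mouse and group. Points are mice (open circle, DIO-HFD replicate 1), lines means and bars SDs. In the Gata2, Pax7, Foxh1 and Foxs1 runs shown, DIO-HFD replicates 2, 3 and 4 lie below all DIO-VSG mice (17.4% to 24.8% against 47.3% to 56.2% in the Gata2 exon). In the intron runs of Foxn3, Foxn4 and Foxo3 they lie above all DIO-VSG mice. The open circle lies with the other groups.

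The families held different shares of sites with an unadjusted p under 0.05 in the comparison of DIO-VSG with DIO-HFD. Over all sites 20.2% were higher and 4.85% lower, and 8.64% and 11.4% with each mouse centred. Gata had 31.3%, with 20 higher and 11 lower of 99 sites (15 and 23 with each mouse centred), and 84 of these sites were in Gata2. Fox had 26.3%, with 76 higher and 20 lower of 365 sites, and 22 and 51 with each mouse centred. Pax had 24.1% (17 and 4 of 87, and 8 and 15 when centred), and Dlx 18.5% (4 and 1 of 27, and 3 and 4 when centred). Sox, with 7.48% (6 and 2 of 107, and 1 and 15 when centred), and Nkx, with 9.09% (4 and 5 of 99, and 2 and 22 when centred), held the fewest, beside 25.0% of all sites. Lhx had 15.9% (2 and 5 of 44, and 0 and 12 when centred) and Pou 13.6% (6 and 2 of 59, and 5 and 8 when centred). The Six2 family had 20.8% (3 and 2 of 24, and 1 and 4 when centred). Meis had 33.3% (2 and 1 of 9, and 1 and 1 when centred). With replicate 1 of DIO-HFD left out the shares were 48.5% in Gata, 48.1% in Dlx, 46.8% in Fox and 37.9% in Pax, beside 44.9% of all sites. They were 33.3% in the Six2 family, 30.5% in Pou, 27.1% in Sox, 25.3% in Nkx, 25% in Lhx and 22.2% in Meis.

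By role, the neural list had 31 higher and 9 lower of 280 sites (14.3%), and 14 and 42 with each mouse centred. Over all sites the share was 25.0% (20.2% higher and 4.85% lower), and when centred 8.64% were higher and 11.4% lower. The list of heart, muscle and vessel had 26 and 5 of 165 (18.8%), and 11 and 19 when centred. The endoderm list had 16 and 2 of 102 (17.6%), and 2 and 10 when centred. The Fox and Pou genes that most tissues express had 6 higher and 11 lower of 59 sites (28.8%), and 4 and 22 when centred. The blood and immune list had 21 higher and 13 lower of 102 (33.3%), and 15 and 27 when centred, of which 84 sites are again in Gata2. With replicate 1 of DIO-HFD left out, the shares of sites were 24.3%, 33.9%, 30.4%, 45.8% and 54.9% in the order of these lists, beside 44.9% of all sites. The lists overlap, and limma gave none of them a site with an adjusted p under 0.05 with all mice.

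Among the 82 further developmental regulators 66 genes could be tested, and none passed in limma. At an unadjusted p under 0.05 CON-LFD had 3 genes higher and 0 lower than DIO-HFD, DIO-LFD had 4 and 1, and DIO-VSG had 6 and 3. Against DIO-LFD, DIO-VSG had 1 and 3. The shares were 4.55%, 7.58%, 13.6% and 6.06%, beside 8.13%, 9.19%, 27.0% and 4.83% of all genes. The Hox genes, of which 31 were tested, had 5 higher and 2 lower for DIO-VSG against DIO-HFD (22.6%), and none passed.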

How the data were processed

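DNA from mammary adipose tissue of 14 mice was digested with MspI, and fragments of 40 to 170 bp were bisulfite sequenced. The authors aligned the reads to mm10 with Bismark, called methylation with methylKit and removed mice whose sequencing was poor. The deposited table holds each site's level as a fraction from 0 to 1, with its nearest transcript and flags for promoter, exon, intron and CpG island; percentages here are these fractions times 100. The table gives no read counts, so depth is unknown, no interval or detection limit was computed, and a level of 0 or 100% may rest on few reads. Columns were matched to mice by the number that ends each label.

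Members and gene lists were chosen with earlier results of these data known. CCGG, island overlap and place in a gene were read from the RefSeq and GENCODE vM21 copies of GRCm38. Levels b became M = log2((b + 0.01)/(1 - b + 0.01)). Sites with an SD of at least 0.05 were fitted with limma 3.58.1 in R 4.3.3, the 4 groups in 1 model, and p was adjusted over all 65610 tested sites, or over 11825 genes, whose value was M of the mean level of their tested sites. The methods of the study name the adjustment and leave the test to a reference, so limma was chosen here. The fit was tested on simulated data. Replicates are separate mice, and p-values measure the spread between them. The sites named are, per comparison, the 4 member sites with the smallest p, since fewer than 4 passed; the genes named are the 3 with the smallest p per comparison, the 3 with the most sites, families at both ends of the level, and a list of mammary, adipose, blood, neural and visceral factors. Alternatives were an offset of 0.1, untransformed levels, limma's trended and robust prior, fits of the compared groups alone, centring on each mouse's median, an SD of 0.1 or no filter, autosomes alone, a replicate block, and omission of single mice. A fit to sites outside CCGG was added once the data had been seen. Python 3.11.15, pandas 2.3.3, NumPy 2.4.6 and Matplotlib 3.10.9 were used. Tumor and human data were not analysed here, and some loci are not reported here.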

Additional observations from a re-analysis of the deposited data

Results flagged for a closer look

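Within a group of 4 mice, a mouse was singled out where its gap to the nearest other mouse, divided by the range of the group, was above Dixon's critical value for 4 samples. Of 84 groups of named sites and genes 8 met this, and chance gives about 4.2. DIO-HFD replicate 1 was the mouse in 3 of them, with ratios of 0.941 for Pou3f1 (47.7%, with the others from 34.3%), 0.856 for Foxa3 (57.9%, from 38.4%) and 0.940 for Pax7 (50.1%, from 36.6%). In DIO-VSG mice replicate 2 stood apart in Six2 (0.855, at 36.1%) and Gata3 (0.885, at 47.5%), replicate 3 in Pou2f2 (0.936, at 40.6%) and replicate 4 in Pou5f1 (0.958, at 53.4%). At the Pou3f4 site DIO-VSG replicate 1 had 98.1% and the other 3 mice 100%, which gives a ratio of 1.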

How the results depend on the processing

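The counts of member sites and genes at an unadjusted p under 0.05 depended most on DIO-HFD replicate 1. Leaving out 1 mouse at a time, the sites ran from 17 to 258 for CON-LFD, from 44 to 295 for DIO-LFD and from 88 to 358 for DIO-VSG against DIO-HFD, and from 22 to 52 for DIO-VSG against DIO-LFD. The genes ran from 0 to 28, 4 to 28, 7 to 43 and 2 to 5. Each highest value was without DIO-HFD replicate 1, except the 52 sites, which came without DIO-LFD replicate 1. The 358 sites stand beside 44.9% of all sites in the same fit. The 17 sites, without CON-LFD replicate 1, were 1.85% of the members, beside 3.98% of all sites. Ranges without such a share describe the fits and are not results about the members. Leaving out any other mouse, at most 1 member site and 0 genes passed an adjusted p of 0.05. Without CON-LFD replicate 1 this was 1 site for DIO-VSG against DIO-HFD (0.109% of the members), beside 0.00914% of all sites. With only the groups compared in the fit the sites were 23 for CON-LFD and 35 for DIO-LFD, and the genes 1, 1 and, for DIO-VSG against DIO-LFD, 8. With an SD of at least 0.1, which tests fewer sites, the sites were 10, 21, 60 and 10 and the genes 1 for CON-LFD against DIO-HFD and 1 for DIO-VSG against DIO-LFD. These site counts were 6.13%, 12.9%, 36.8% and 6.13% of the members tested, beside 7.61%, 11.8%, 39.8% and 3.50% of all sites. Over all genes the shares were 7.40% and 4.30%. With each mouse centred the genes were 7 for CON-LFD against DIO-HFD, beside 5.52% of all genes. For DIO-VSG against DIO-HFD they were 43, 1 higher and 42 lower, compared with 12 and 6 in the fit without centring. Over all genes the centred shares for DIO-VSG were 6.05% higher and 16.8% lower. Each mouse was centred on its median over sites, for genes too, which left a shift in the genes. The centred median M for DIO-VSG was -0.13 over all genes and -0.39 over member genes. Outside CCGG, 16 sites were left for DIO-VSG against DIO-LFD, or 2.96% of the members tested, beside 3.65% of all sites. Other counts stayed within 1.5 times. None of the 28 results for the 4 sites and 3 genes chosen by p in each comparison changed direction under these alternatives. With each mouse centred, the differences of Foxa1, Sox10, Pax7 and Six2 changed sign for DIO-VSG against DIO-HFD. They were then -0.46, -0.18, -0.12 and -0.11 in M, beside a median of -0.13 over all genes. The Meis2 site at 116062407 passed for DIO-VSG with only those groups in the fit. Whether mice with the same replicate number belong together could not be settled from the levels. Their correlations ran from -0.080 to 0.202, with 4 of 19 over 0.1. The median was 0.034, beside -0.016 for mice with different numbers, and 8 of 14 mice correlated best with their own number. With the replicate number as a block the sites were 39, 83, 208 and 30 and the genes 5, 8, 21 and 5. The shares were then 7.49%, 9.33%, 27.6% and 4.48% of all sites and 7.88%, 8.70%, 29.0% and 5.56% of all genes. Depth limits all of these, since reads per site are unknown.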
